A study of Mus musculus with 4 samples.

Results

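Neurons fire and signal with ions, and the genes described here encode proteins that let calcium and sodium cross membranes or carry them back. They are the pore and auxiliary subunits of voltage-gated calcium channels (Cacna1, Cacna2d and Cacnb genes), the pore subunits of voltage-gated sodium channels (Scn genes ending in a), the inositol trisphosphate and ryanodine receptors that release stored calcium (Itpr and Ryr), the Na/K-ATPase (Atp1a and Atp1b), the calcium pumps (Atp2a and Atp2b) and the sodium-calcium exchangers (Slc8a). They were chosen by the gene name that the deposited table gave to each polyA site, which is the place where an mRNA ends and its polyA tail begins. The names picked 49 of 9297 sites, 29 of 7202 gene names and 228 of 34672 tags. Tags are sequenced RNA fragments, counted per site.

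The tags came from 4 replicate libraries of the CA1 neuropil, the layer of the hippocampus that holds mainly dendrites of pyramidal neurons along with axons and glia. The mice were C57BL/6 with the genotype Camk2a-Cre x Pabpc1-cTag, and all 4 libraries shared it, so there was 1 group and no comparison between conditions. The Camk2a promoter drives Cre in excitatory forebrain neurons, Cre switches on a GFP tag fused to Pabpc1, which binds polyA tails, and cTag-PAPERCLIP recovers the mRNA 3′ ends that ultraviolet light crosslinks to the tagged protein. Each replicate was a pool of mice per the study's methods, and the dissection procedure that the methods refer to used adult animals. Replicates 1 to 4 held 16017, 6609, 5947 and 6099 tags. A gene with 0 tags could still have had a share of up to 0.0187%, 0.0454%, 0.0504% and 0.0492% (3 tags) in these libraries. Such limits and the intervals below cover counting error only, since PCR copies of a molecule are not independent. A list of 10 pyramidal neuron genes took 0.538% to 1.32% of a library with 8 of them detected, although no site carried the name Camk2a or Slc17a7. Astrocyte genes took 0.115% to 0.418% (10 of 10 detected), oligodendrocyte genes 0.131% to 0.560% (7 of 8) and microglial genes 0% to 0.0605% (2 of 7). Interneuron genes took 0.0687% to 0.295% (5 of 10). Among them Gad1 had 3, 1, 2 and 2 tags and Cck 3, 4, 5 and 3 in replicates 1 to 4, while Gad2 and Slc32a1 had no site. Genes of blood and endothelium took 0.0312% to 1.28% (4 of 8). In such pooled tissue, fewer cells of a type and less RNA per cell cannot be told apart. In replicate 1, sites that resemble the short noncoding RNA Bc1 took many tags, and without them the totals were 10752, 5832, 5793 and 5973. No channel or pump site was of this kind.

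Voltage-gated channels open when the membrane depolarizes. Sodium channels carry the rising phase of the action potential, and calcium channels let in the calcium that triggers transmitter release and signals to enzymes and genes. The Na/K-ATPase exports sodium and imports potassium at the cost of ATP, and so rebuilds the gradients that each spike runs down. Calcium is cleared from the cytosol by pumps in the plasma membrane and in the endoplasmic reticulum, and by exchangers that use the sodium gradient.

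The 3′ ends behind the highest counts can be read in the genome. Each line below gives 30 bases around the site with the most tags of a gene, on the strand of the gene, 5′ to 3′ in GRCm38 (mm10). Capitals mark AATAAA, the main polyA signal, which the cleavage machinery recognizes. The last line is a site that the table named for a microRNA gene but that lies in the 3′UTR of Itpr1.
Atp1b1, chr1:164437120-164437149, minus strand: gtcaggttaacacaacggacAATAAAagaa
Atp2b1, chr10:99026103-99026132, plus strand: cttaactcatttAATAAAtatactgtttat
Cacnb4, chr2:52428338-52428367, minus strand: aattttttcttttatatAATAAAtgaaaaa
Atp2b2, chr6:113745687-113745716, minus strand: gacaataattgtaAATAAAgaattcaccgt
Scn8a, chr15:101045891-101045920, plus strand: ttgcAATAAAgggttacgtcaatcttgttt
Atp2a2, chr5:122453523-122453552, minus strand: tgatttcaggtaAATAAAtctattctacga
Itpr1, chr6:108551077-108551106, plus strand: cctaaaaatatttAATAAAcgatgcagaat

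Together the 49 sites took 95, 30, 44 and 59 tags in replicates 1 to 4. This was 0.593% (95% Wilson interval 0.485% to 0.724%), 0.454% (0.318% to 0.647%), 0.740% (0.552% to 0.992%) and 0.967% (0.751% to 1.25%) of the libraries, or 0.689% ± 0.219 (SD, n = 4). Replicate 4 was highest and replicate 2 lowest, and their intervals did not overlap. With sites named by the annotated gene, replicate 2 had 0.711% (0.535% to 0.944%) and replicate 4 had 1.07% (0.837% to 1.36%), and these intervals did overlap. The marker lists also differed between the libraries, with pyramidal neuron genes at 1.32%, 1.23%, 0.538% and 0.754% and interneuron genes at 0.0687%, 0.0908%, 0.219% and 0.295% in replicates 1 to 4, and their part in the member share was not tested. Single genes carried much of this. Without Cnih2 (154 tags) the pyramidal list took 0.743%, 0.363%, 0.521% and 0.705%, and without Npy (22 tags) the interneuron list took 0.0437%, 0.0908%, 0.118% and 0.0984%. The 3 genes with the most tags, all of them pump genes and Atp1b1 and Atp2b1 among them, held 103 of the 228 tags (45.2%), whereas 8 genes had a single tag. Seen in all 4 replicates were 7 of the 29 genes (24.1%, against 7.76% of all gene names), among them Atp1b1, Atp2b1, Scn8a, Atp2a2, Cacnb1 and Slc8a2.

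**Figure D1:**
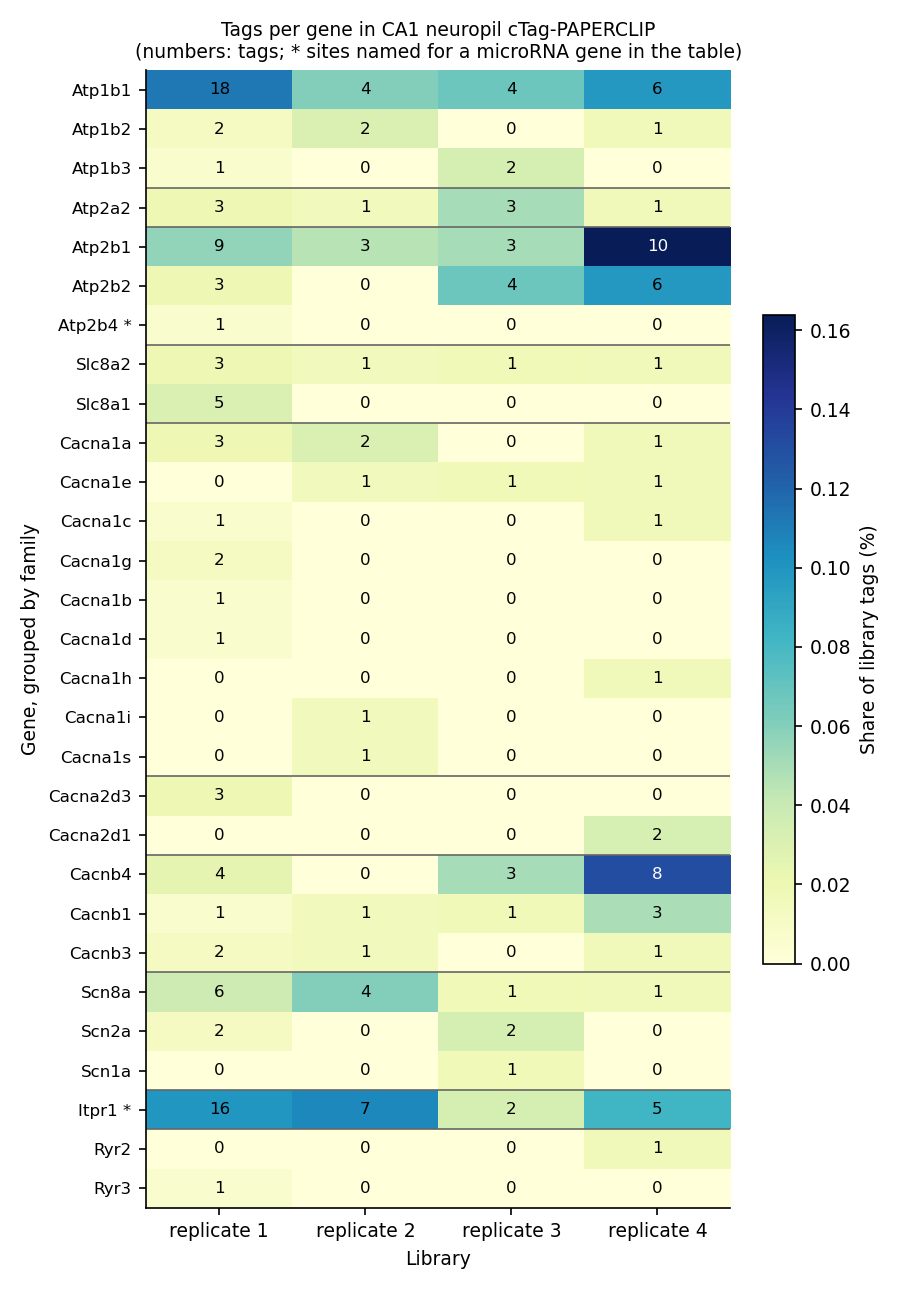
Tags per gene (rows, grouped by family) in each of the 4 CA1 neuropil libraries (columns); printed numbers are tags and the color is the share of the library's tags in %. Asterisks mark Itpr1 and Atp2b4, whose sites the table named for a microRNA gene. Atp1b1 reached 18 tags in replicate 1, and most calcium channel pore genes held 0 or 1 tag per library.

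The beta subunits of the Na/K-ATPase bring this pump to the membrane. Atp1b1, the main neuronal form, had 18, 4, 4 and 6 tags (0.0846% ± 0.0248), of which 28 of 32 lay at a site 25 bases before the gene's end (chromosome 1, position 164437134, minus strand). Its shares ran from 0.0605% to 0.112%, with overlapping Wilson intervals in all replicates. Atp1b2, a beta form of glia, had 2, 2, 0 and 1 tags, beside 67, 19, 10 and 7 tags of the astrocyte list, and the part of glial RNA in the Atp1b2 tags was not tested. The pull-down was of Pabpc1 tagged in cells with Camk2a-driven Cre, a selection meant to leave glial RNA behind. Atp1b3 had 1, 0, 2 and 0 tags. By family, beta subunits took 0.109% ± 0.0175 of tags, with 0.131%, 0.0908%, 0.101% and 0.115% in replicates 1 to 4.

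Calcium is exported by other pumps. Plasma membrane calcium pumps (Atp2b) expel calcium from the cell and took 0.13% ± 0.0962 of tags, or 0.0793% without replicate 4. Atp2b1, the most widely expressed of them, had 9, 3, 3 and 10 tags (0.0790% ± 0.0568), with 23 of 25 at a site 25 bases before the end of the gene (chromosome 10, position 99026118, plus strand). Replicate 4 was highest, at 0.164% against 0.0454% to 0.0562% in the others. Leaving out replicate 4 gave a mean of 0.0507%. Atp2b2, a fast form of neurons, had 3, 0, 4 and 6 tags at 4 sites (0.0461% ± 0.0449, or 0.0287% without replicate 4), and a site named Mir6903 with 1 tag lay in the 3′UTR of Atp2b4. The pumps that fill the endoplasmic reticulum (Atp2a) were represented by Atp2a2, the form found in most cells, with 3, 1, 3 and 1 tags (0.0252% ± 0.0169, or 0.0168% without replicate 3). Slc8a2, an exchanger of neurons, had 3, 1, 1 and 1 tags, or 0.0151% to 0.0187%, with Wilson intervals that reached from 0.00267% to 0.0952%. Slc8a1, the exchanger best known from heart muscle, had 5 tags, all in replicate 1.

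Most channel genes had fewer tags than the main pump genes. Of the 10 annotated genes for calcium channel pores, 9 had a site, but they held 18 tags in all (0.0520% ± 0.0257), with 8, 5, 1 and 4 in replicates 1 to 4. Cacna1a, the pore of P/Q-type channels that trigger transmitter release, had 3, 2, 0 and 1 tags. Cacna1e, the pore of R-type channels, had 0, 1, 1 and 1 tags at a site 7645 bases past the stop codon. The remaining 7 were Cacna1c and Cacna1g with 2 tags each and Cacna1b, Cacna1d, Cacna1h, Cacna1i and Cacna1s with 1 tag each. Cacna1s encodes the channel of skeletal muscle, and a single tag does not show expression.

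Cytoplasmic beta subunits bring the calcium channel pore to the membrane. The Cacnb family took 0.0845% ± 0.0764 of tags, with 7, 2, 4 and 12 tags in replicates 1 to 4. The pores had more tags in replicates 1 and 2 and the beta subunits in replicates 3 and 4. Without replicate 4 the beta subunits held 13 tags (0.0471%) and the pores 14 (0.0475%). Cacnb4 had 4, 0, 3 and 8 tags at 4 sites (0.0516% ± 0.0569, or 0.0251% without replicate 4). Cacnb1 had 1, 1, 1 and 3 tags (0.0218% ± 0.0188, or 0.0127% without replicate 4), and Cacnb3 had 2, 1, 0 and 1. The extracellular alpha2delta subunits had 5 tags (Cacna2d3 with 3, all in replicate 1, and Cacna2d1 with 2, both in replicate 4). Whether the Cacnb and Cacna1 shares differ was not tested.

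Sodium channel pores were limited to 3 of 10 annotated genes and 17 tags (0.0485% ± 0.0226). Scn8a, the pore of the main sodium channel at the axon initial segment of adult neurons, had 6, 4, 1 and 1 tags (0.0328% ± 0.0209). Scn2a, another pore of excitatory neurons, had 2, 0, 2 and 0 tags, and Scn1a, best known from interneurons, had 1 tag. Release channels differed by how the sites were named. Ryr2 and Ryr3 had 1 tag each, and no site was named for an Itpr gene. Yet 2 sites named Mir7661 lay in the 3′UTR of Itpr1, the receptor form typical of neurons, and held 16, 7, 2 and 5 tags (0.0804% ± 0.0328). By annotation, Itpr1 thus stood beside Atp1b1 and Atp2b1 in share. Of the 27 tags at its main site (chromosome 6, position 108551092, plus strand), 17 bases before the gene's end, 13, 7, 2 and 5 came from replicates 1 to 4.

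With sites named by the GENCODE vM21 gene they lie in, the channels and pumps had 53 sites, 32 genes and 275 tags (0.820% ± 0.166). The 47 added tags were 22, 17, 2 and 6 per replicate. Of the 52 annotated genes that the names could match, 20 had no site by either name, among them Atp2b3, Cacnb2, Scn3a, Itpr2 and Ryr1.

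**Figure D2:**
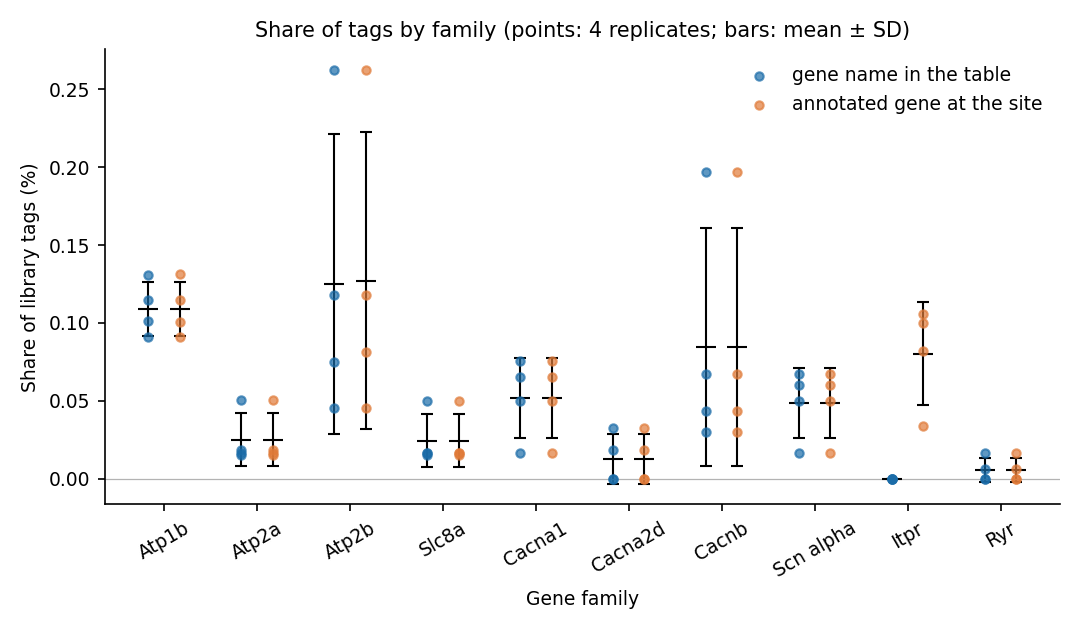
Share of library tags (y axis, %) by gene family (x axis) in each of the 4 replicates, with sites counted by the table's gene name (blue) or by the annotated gene (orange); bars are mean ± SD. Itpr moves from 0% to a mean of 0.0804%, while Atp1b stays at 0.109%.

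Families were then set against each other within each library, where depth cancels. Pump and exchanger genes held 68, 19, 35 and 39 tags and channel genes 27, 11, 9 and 20. The log2 ratio (with 0.5 added to each count) was 1.32, 0.76, 1.90 and 0.95, and averaged 1.23 ± 0.50 (SD), with pumps ahead in 4 of 4 libraries. In a two-sided exact permutation test that flips signs, p was 0.13 (adjusted p = 0.208 over 5 pairs), and p = 0.13 is the smallest this exact test allows with 4 replicates. With annotated names the mean was 0.94 ± 0.46, again above 0 in 4 of 4. The 3 genes with the most tags held 103 of the 161 pump and exchanger tags, and without them 58 were left against 67 channel tags (mean log2 ratio -0.23 ± 0.72). Since all 3 are pump genes, leaving them out could only lower the ratio, and this value is a description. When the 3 channel genes with the most tags were left out as well, 58 tags stood against 34. The mean was then 0.70 ± 0.65 with Cacnb4, Scn8a and Cacna1a left out and 0.74 ± 0.67 with Cacnb1, which ties with Cacna1a, in its place, above 0 in 3 of 4 and 4 of 4 libraries.

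Plasma membrane calcium pumps exceeded those of the endoplasmic reticulum in 4 of 4 replicates, by 1.90 ± 1.09 on the log2 scale, from 1.1 in replicate 3 to 3.46 in replicate 4. The exact permutation p = 0.13 (adjusted p = 0.208) did not pass the test in this design. Without Atp2b1, which could only lower the ratio, the mean was 0.22 ± 1.52. Calcium and sodium channel pores did not separate, with 18 and 17 tags and ratios of 0.00, 0.29, -1.58 and 1.58 (exact permutation p = 1.00). The comparison of release channels turned with the names. Itpr over Ryr had a mean of -0.79 ± 0.92 with table names, where it rests on 0 and 2 tags and its size is set by the added count (-1.73 with 0.1 and -0.50 with 1), and 2.89 ± 0.95 with annotated names, where every replicate was above 0 (30 against 2 tags, exact permutation p = 0.13, adjusted p = 0.156).

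**Figure D3:**
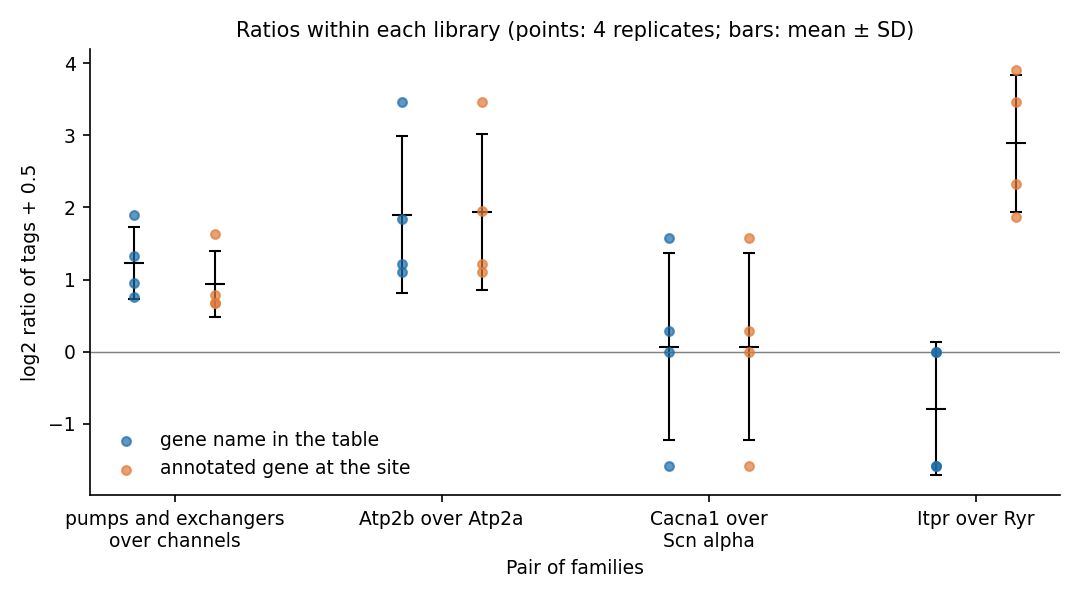
Log2 ratio of tags (y axis, 0.5 added to each count) for 4 pairs of families (x axis) in the 4 replicates, by the table's gene names (blue) or annotated genes (orange), with mean ± SD. Pumps exceeded channels in every library under both names when all genes were counted, and Itpr over Ryr changed sign.

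The spread between replicates was next set against counting error. An exact multinomial test asked, for each gene with at least 20 tags, whether its tags were divided among the libraries as all tags were. Of the 3 channel and pump genes with enough tags, 2 were uneven at an adjusted p under 0.05, among them Atp2b1 (exact test, adjusted p = 0.0457), while Atp1b1 was not (exact test, adjusted p = 0.635). Among all 211 genes tested, 148 (70.1%) were uneven, so 2 of 3 is near the background. With Bc1-like tags left out of the totals, 0 of the 3 were called (exact test, adjusted p = 0.134 for Atp2b1), against 144 of 211 genes (68.2%). With a minimum of 10 tags, 3 of 7 members were called, against 218 of 533 genes (40.9%). Counting sites by annotated gene as well, a choice made after the data were seen, gave 9 members. Of these 4 were called, among them Cacnb4 and Atp2b2 (exact test, adjusted p = 0.00726 and 0.0276), against 217 of 530 genes (40.9%). Replicate 2 gave no tag to Cacnb4 or Atp2b2. Itpr1, Scn8a and Atp1b1 had adjusted p from 0.577 to 0.693 in this exact test, and Atp2b1 had 0.0718.

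Of the 49 sites, 22 had tags in more than 1 replicate (44.9%, Wilson interval 31.9% to 58.7%), against 34.2% of all sites, and the latter lies within the interval. In all 4 replicates were 6 sites (12.2%), against 4.90% of all sites. Among them were the main sites of Atp1b1 and Atp2b1 and the sites of Atp2a2, Cacnb1 and Slc8a2. The share with more than 1 replicate was 56.7% without replicate 1 and 37.5% without replicate 3, against 27.6% and 29.9% of all sites. Sites with 1 tag made up 44.9% of member sites and 57.2% of all sites.

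Most of these 3′ ends lay in a 3′UTR of the gene they were named for. This held for 45 of 49 sites (91.8%, against 76.5% of all sites) and for 97.8% of tags, against 70.2% of all tags. The 2 groups are not alike in kind. All tags include those at Bc1-like sites (34672 tags with them, 28350 without), and the 3′UTR share without them was not computed. All sites also include sites named for noncoding genes, while members were picked by names of protein-coding genes. The 4 other member sites held 5 tags. They were a coding exon of Atp2b1, a noncoding exon of Scn2a, a position 106 bases past the end of Cacnb4, and an intron of Cacna2d3 782 kb upstream of the gene's end with 2 tags. Within 100 bases of the annotated gene end lay 22 sites (44.9%, against 41.8%), all of them upstream, by a median of 25 bases. These held 69.7% of member tags, against 44.8% of all tags and 54.8% of all tags without Bc1-like sites. By replicate the member share was 60%, 70%, 75% and 81.4% (71.6% ± 9.02). Without the 3 genes with the most tags the pooled share was 49.6%.

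A polyA signal, AATAAA or ATTAAA searched on the strand of the site within 50 bases on either side, was found at 34 of 49 sites (69.4%), against 78.1% of all sites. It was AATAAA at 30 sites and ATTAAA at 4. Its start lay at a median of -2.50 bases from the listed position (negative is upstream), against -2.0 for all sites, so the listed positions fall at the signal, as the windows printed above show. Sites seen in more than 1 replicate held a signal in 15 of 22 cases and sites seen in 1 replicate in 19 of 27. Sites of Cacnb1 and Slc8a2, which were seen in every replicate, had none. In the 100 bases upstream, the cytoplasmic polyadenylation elements TTTTAT or TTTTAAT occurred at 24.5% of member sites and 19.4% of all sites, and the Pumilio motif TGTANATA at 6.12% and 5.51%. The GC content over 100 bases on either side had a median of 38.3%, against 37.3%.

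**Figure D4:**
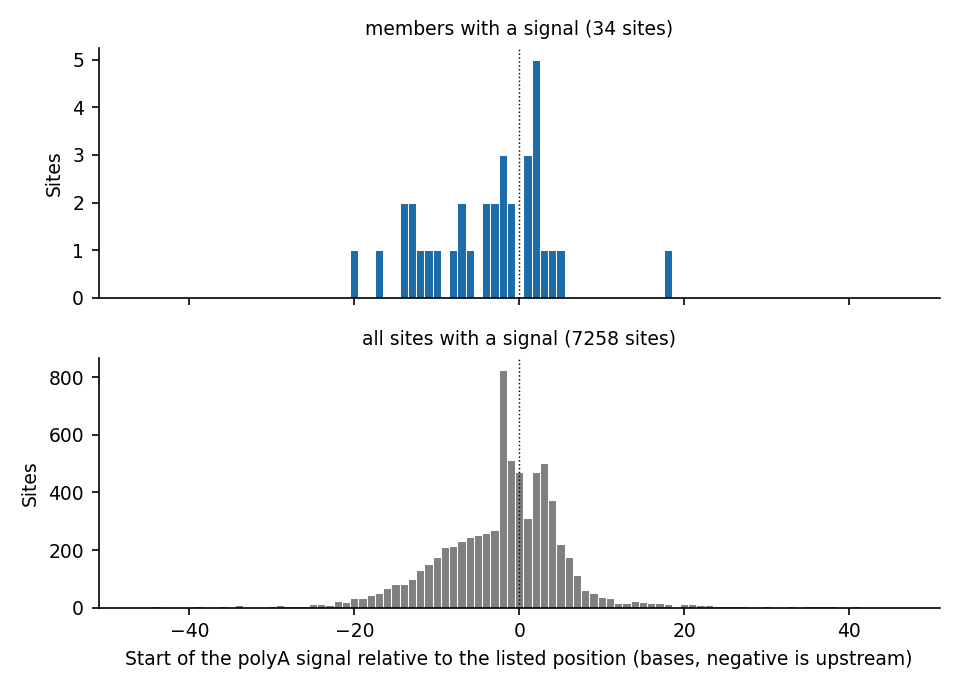
Number of sites (y axis) by the distance from the listed position to the start of the polyA signal (x axis, bases, negative is upstream), for the 34 member sites with a signal (top) and the 7258 of all sites (bottom). Both gather around 0, and 1 member site had its signal 18 bases downstream.

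More than 1 site was listed for 11 of 29 genes (37.9%, against 21.7% of all genes), and their 3′UTRs differed widely in length. Lengths are given from the stop codon in the annotated transcript with the longest 3′UTR up to the site. Over the 45 sites in a 3′UTR they ran from 113 bases (Atp1b2) to 15069 (Slc8a1), with a median of 1711. In Atp1b1 and Atp2b1 nearly all tags lay at the distal end, at 1145 and 3002 bases. In Atp2b2 the site with most tags was an inner site at 3270 bases, with 1, 0, 3 and 4 tags. In the transcript that reaches the gene's end this inner site lies at 2839 bases. The site at the gene's end, at 4688 bases in that transcript, had 1 tag in all.

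Cacnb4 and Scn8a used their ends more. In Cacnb4 the site at 6140 bases held 2, 0, 1 and 5 tags and the site at 3453 bases held 1, 0, 2 and 2. In Scn8a the site at 5221 bases held 4, 0, 1 and 1 tags, and the site at 1083 bases held 1, 3, 0 and 0, so that replicate 2 had tags only at inner sites. The Scn8a window at the end is printed above. Its inner site (chromosome 15, position 101041768, plus strand) had no signal, and the genome runs into a stretch of A there:
Scn8a inner site, chr15:101041753-101041782, plus strand: tgtaaaaccaaatcctagggctaaaaaaaa

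**Figure D5:**
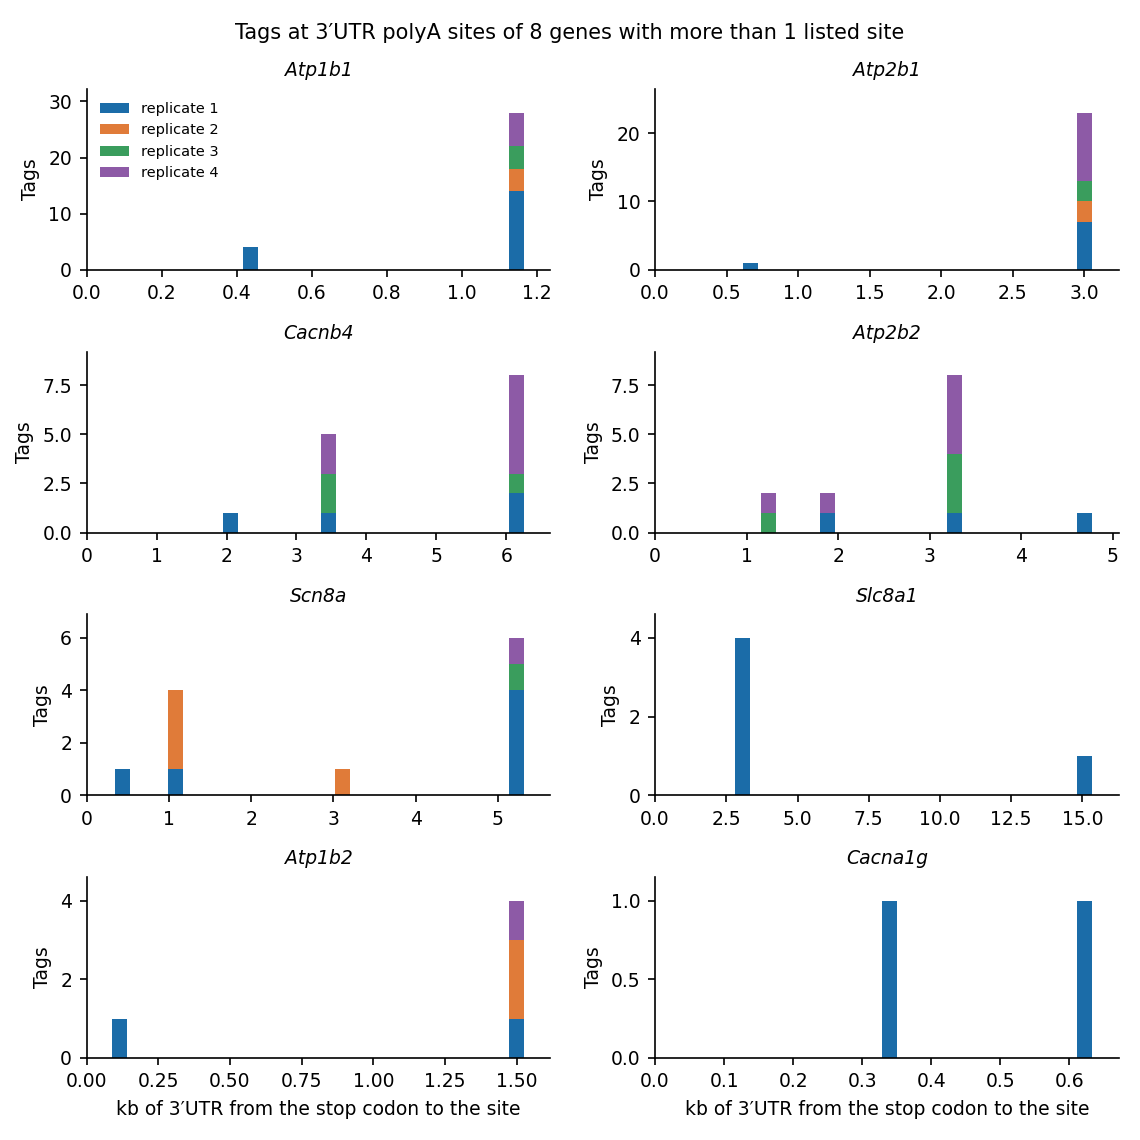
Tags (y axis, stacked by replicate) at the 3′UTR sites of 8 genes against the length of 3′UTR from the stop codon to the site (x axis, kb). Atp1b1 and Atp2b1 have nearly all tags at the last site, and Atp2b2 has most at an inner site. Each length is from the transcript with the longest 3′UTR up to that site, which in Atp2b2 is not the same for all sites.

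The study asked which 3′UTR forms reach dendrites, and these libraries allow distal and proximal sites to be compared within the neuropil. In the 4 genes that had several sites each found in more than 1 replicate (among them Atp2b2, Cacnb4 and Scn8a), the most distal sites held 7, 1, 6 and 10 tags and the most proximal 9, 6, 6 and 3. The site at the end of Atp2b2 had tags in 1 replicate, so the site at 3270 bases counted as its most distal. The log2 ratio was -0.34, -2.12, 0.00 and 1.58, with a mean of -0.22 ± 1.52 (exact sign-flip permutation test, p = 0.750). It was above 0 in 1 of 4 replicates, and the mean was 1.01 without replicate 2. Over all listed sites, which brings in genes such as Atp1b1 and Atp2b1, the mean was 2.95 ± 1.57 (exact permutation p = 0.13). In that setting the most proximal sites of Atp2b1, Scn2a and Cacna2d3 lay outside a 3′UTR, with 1, 1 and 2 tags. The value is therefore not a comparison of 3′UTR forms alone. Use of the distal site did not differ detectably between replicates in these 4 genes (exact test, adjusted p from 0.312 for Scn8a to 1.00 for Atp2b2, unadjusted p = 0.0714 for Scn8a). Of the 4 genes, 0 were called and 0 had an unadjusted p under 0.05, against 11 of 105 genes called (10.5%).

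Other genes of these pathways were read from a list of 48 auxiliary subunits, regulators and related transporters. Tags were found for 33 of them, in more than 1 replicate for 19 and in all 4 for 7, with 455 tags in all (1.37% ± 0.200). Of all gene names, each of which had tags, 47.4% were seen in more than 1 replicate and 7.76% in all 4. The base to set against these shares is the 33 genes with tags. Calm3 and Calm2, which encode calmodulin, the calcium sensor that binds many of these channels and pumps, had 39, 17, 3 and 12 tags (0.187% ± 0.0946) and 16, 5, 9 and 13 tags (0.135% ± 0.0609). Ankyrins, which anchor channels and pumps, were seen in all 4 replicates, Ank2 with 3, 1, 1 and 2 tags and Ank3 with 1, 1, 2 and 1. Cacng7, an auxiliary subunit of AMPA receptors and calcium channels, had 3, 1, 1 and 1 tags, whereas the 7 tags of Cacng4 all came from replicate 3.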

How the data were processed

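The authors deposited raw tag counts per polyA site, whole numbers with no normalization, in 1 column per replicate. Per the study's methods, tags were mapped to the genome and clustered into sites with CTK. The submitters' processing notes name cutadapt, Novoalign and mm10 without versions. Collapsing of duplicate tags is not given in the sources used here, and by its name the table counts neuropil tags at sites found in Camk2a-expressing cells. How tags with several matches were placed is also not given there.

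The channels and pumps, gene lists and tests were chosen with earlier results of these data known. Named with values were genes with at least 10 tags, in all 4 replicates, called in a test, or with more than 1 site in more than 1 replicate, and the others were added to complete each family. Sites were annotated on their strand with GENCODE vM21 (GRCm38). Sites lay within chromosome ends, and 48 of 49 member sites lay inside the gene of their name. Sequences came from the GRCm38 genome. Shares are percentages of a replicate's tags. Wilson intervals are at 95%. Pairs of families were compared by exact sign-flip permutation tests over 4 replicates, uneven tags by exact multinomial tests (chi-square approximation above 200 tags) and site usage by an exact test of all tables with the same margins for genes with at least 10 tags, with Benjamini-Hochberg adjustment over all genes tested. These last tests compare libraries with the sampling of single tags. Nothing in the labels says that replicates came from separate cultures or animals beyond the pools of mice named in the methods, so p-values measure the spread between these libraries. Bc1-like sites held at least 10 of 63 words of 12 bases from Bc1 within 75 bases. Some genes that the names matched, and some of the auxiliary list, are counted in the totals but not reported here. The tests were checked on simulated data. Python 3.11.15, numpy 2.4.6, scipy 1.17.1, pandas 2.3.3, statsmodels 0.14.6 and pysam 0.24.0 were used. Alternatives were other totals, names, minimum tags, pseudocounts (0.1 and 1) and leaving out each replicate.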

Additional observations from a re-analysis of the deposited data

Results flagged for a closer look

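In 4 of 24 shares and ratios checked, 1 library stood apart from the other 3, by a gap to its nearest neighbor that exceeded Dixon's 95% critical value for 4 samples. Chance alone flags about 1 in 20 independent groups. The values here share tags and many rest on few, so the count cannot be set against that rate. The share of Atp2a2, which is also the share of the Atp2a family, was high in replicate 3, and the gap was 0.898 of the range (0.0504% against 0.0151% to 0.0187%). Atp2b1 was high in replicate 4 (0.909 of the range). The Slc8a family was high in replicate 1 (0.952 of the range), where Slc8a1 had all of its 5 tags. With Bc1-like tags left out of the totals, the gaps were 0.682 of the range for Atp2a2, 0.722 for Atp2b1 and 0.991 for Slc8a, and among these only Slc8a still exceeded the critical value. These rest on 3, 10 and 8 tags in the library that stood apart, and no cause was tested.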

How the results depend on the processing

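No paired analysis was possible because the labels give 1 group. Of 79 alternatives for the main results, 67 left the value on the same side or within the spread, and of 60 for single genes, 58 stayed within 1 SD, which for genes with few tags allows moves of over 1.5 times. Pumps over channels changed sign without the 3 genes with the most tags, to -0.23, and was 0.70 with the 3 top channel genes left out too, both chosen after seeing the data. Itpr over Ryr changed sign with annotated names, to 2.89. The distal over proximal ratio changed sign with all listed sites, to 2.95, and ran from -1.11 to 1.01 when each replicate was left out, with 1.01 without replicate 2. Calcium over sodium channel pores was -0.13 with sites in more than 1 replicate and ran from -0.43 to 0.62 without each replicate, with 0.00 without replicate 2 and -0.43 without replicate 4. Genes with uneven tags numbered 0 of 3 tested without Bc1-like tags in the totals (144 of 211 over all genes) and 4 of 9 by annotated gene with at least 10 tags (217 of 530). Leaving out each replicate gave 1 to 2, with 1 of 1 without replicate 1 (85 of 112) and 1 of 2 without replicate 4 (97 of 145). Sites in more than 1 replicate fell to 18.4% when 2 tags per replicate were required (10.9% of all sites). The causes were not tested. No member gene was left to test for uneven tags at 50 tags or for site usage at 20 tags, and by the table's names Itpr and Ryr had no tag at sites in more than 1 replicate, so these alternatives gave no value. The ratio of plasma membrane to endoplasmic reticulum calcium pumps kept its direction under every alternative run, and fell to 0.22 without those 3 genes. Channel and pump genes described here held 1 to 32 tags, too few for most to be set against each other across libraries.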
